A study of Homo sapiens with 47 samples.

Results

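The HOXC cluster from HOXC4 to HOXC11 was followed through a differentiation series of human embryonic stem cells (hESCs). The 7 genes, HOXC4, HOXC5, HOXC6, HOXC8, HOXC9, HOXC10 and HOXC11, were taken by symbol through their Ensembl identifiers out of 58051 gene records in each of 47 RNA-seq libraries, and all 7 passed the filter on low counts. Where 2 records carried the symbol HOXC5, the record with more counts over all libraries was used. It is annotated as a processed transcript and had 28620 expected counts in all, against 27862 for the protein-coding record, which is reported separately. The libraries came from WA09 (H9), a single established hESC line, so the 3 independent differentiations, called r1, r2 and r3, are repeats of the protocol and not of the genotype. Undifferentiated hESCs in mTESR1 were sampled at t0. From then on all cultures were kept in N2B27 without vitamin A with CHIR-99021, an activator of WNT signalling, rhFGF2, the retinoic acid receptor blocker AGN193109 and the ROCK inhibitor Y-27632. Neuromesodermal progenitor (NMP)-like cells were taken at 36 h, and cultures of pre-neural progenitors (PNPs) and neural crest (NC) were taken at each passage from P1 to P10. At P5 and P8, epithelial cells (EPI, labelled as progenitors) and mesenchymal cells (MES, labelled as NC) were enriched by selective detachment with TrypLE, an enrichment rather than a sort. Each of the 16 groups held 3 libraries, except P9 with 2 (r1 and r2), which gives 35 whole-culture and 12 fraction libraries.

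HOX genes encode homeodomain transcription factors that give cells of the body axis their anterior-posterior address. In each cluster the genes lie in the order in which they are activated in the embryo, from the 3′ end, with low paralogue numbers and anterior limits of expression, to the 5′ end, with high numbers and posterior limits. HOXC4 and HOXC5 are associated with cervical levels, HOXC6 with the brachial cord, HOXC8 and HOXC9 with the thorax, and HOXC10 and HOXC11 with lumbosacral levels. CDX factors, WNT and FGF signalling act on HOX genes in the elongating axis, and GDF11 is known for the step from trunk to tail. There is no HOXC member of paralogue groups 1, 2, 3 or 7 in humans.

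On the GRCh38 build with the GENCODE 29 annotation, all 7 genes lie on the plus strand of chromosome 12 within 82.9 kb. From the 5′ end of the cluster they are HOXC11 at chr12:53973126-53977643, HOXC10 at chr12:53985065-53990279, HOXC6 at chr12:53990624-54030823, HOXC9 at chr12:53994895-54003337, HOXC8 at chr12:54009106-54012362, HOXC4 at chr12:54016931-54056030 and HOXC5 at chr12:54017110-54035361. The annotated spans interleave because HOXC4, HOXC5 and HOXC6 have long transcripts with distant upstream exons. HOXC4 and HOXC6 share 484 exonic bases on the same strand, HOXC4 and HOXC5 share 305, HOXC5 and HOXC6 share 305, and HOXC6 and HOXC9 share 73. The authors' program divided reads among these records by estimate, and counts of HOXC4, HOXC5 and HOXC6 were not whole (within 0.005) in 43, 42 and 44 of the 47 libraries, that of HOXC10 in 28, those of HOXC9 and HOXC8 in 2 and 1, and that of HOXC11 in 0. Levels of HOXC4, HOXC5, HOXC6 and HOXC10 are therefore less certain than those of HOXC8, HOXC9 and HOXC11.

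The promoter shown here is the start region from which long transcripts of the 3′ members arise. RefSeq on GRCh38.p14 places the start of HOXC4, HOXC5 and HOXC6 at the same base, and a promoter window was matched for 2 of the 7 members, HOXC4 and HOXC5, for which it is the same. The 250 bases before that start, chr12:54016638-54016887 on the plus strand, are printed because CDX factors are known to act on HOX genes in the elongating axis, and capitals mark the letters TTTATNG, a CDX-type motif.

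HOXC4 and HOXC5: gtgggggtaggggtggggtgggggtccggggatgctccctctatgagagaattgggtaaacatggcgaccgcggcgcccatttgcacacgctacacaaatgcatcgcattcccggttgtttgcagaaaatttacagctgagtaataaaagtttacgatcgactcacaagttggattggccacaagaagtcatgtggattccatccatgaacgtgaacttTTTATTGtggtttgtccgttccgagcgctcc

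The match TTTATTG begins 31 bases before the start, on the plus strand. On either strand the motif was present in 8.95% of 34943 RefSeq promoter windows of this length. The letters TGATTNAT (a HOX with PBX type, in 2.49% of windows) and TGACAG (a MEIS type, in 13.1%) were searched in the same way and were not in this window, and none of the motifs overlapped another there. A match of letters is a description of the sequence and no site was measured.

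Libraries held 13029491 to 64082859 expected counts in total (median 47292229). Markers set some libraries apart from others of their label. In P1 r1 the 5 epithelial progenitor markers (SOX2, NKX1-2, CDH1, EPCAM and ESRP1) summed to 769 TPM (transcript abundance scaled to the same total in every library), against 15.5 and 5.66 in the other P1 libraries. The same list summed to between 615.9 and 722.1 TPM in hESCs at t0 and to 524.1, 419.5 and 112.5 TPM at 36 h. It is thus not particular to progenitors of later passages. In P10 r1 they summed to 234 TPM, against 4.61 and 4.19 in P10 r2 and r3 and 10.1 in both P9 libraries. Differentiation r1 thus went from 339 TPM at P8 to 10.1 at P9 and back to 234 at P10. Whether the P9 and P10 libraries of r1 carry the right label was not tested. The study's paper groups P1 r1 with its 36 h libraries and P10 r1 with its P5 to P8 libraries. It proposes that outlying libraries likely reflect biological variation. It also reports cells with SOX2 and CDX2 up to P10, by staining and qRT-PCR. In 36 h r3 the paraxial mesoderm markers summed to 632 TPM, against 8.83 and 132 in r1 and r2. Counts of called members at the steps that rest on P1 r1 or P10 r1 are given with and without them. The whole cultures mix PNPs and NC, and in such bulk RNA fewer cells of a type and less RNA per cell cannot be told apart.

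In hESCs the cluster was close to silent. At t0 the summed level of the 7 genes was between 0.67 and 1.25 TPM, a unit that also divides reads by transcript length. At 36 h the sum was 1.08, 1.34 and 11.3 TPM in r1, r2 and r3. Most of the value of r3 was HOXC4, which stood at 0.45, 0.37 and 8.92 TPM, and HOXC5 stood at 0, 0 and 1.25 TPM. Both genes were thus seen at 36 h above 1 TPM only in r3. In the same library SOX2 was at 4.14 TPM, against 217 and 21.3 in r1 and r2, and the epithelial progenitor markers summed to 112.5 TPM, against 524 and 419.5. The part of these markers in the result was not tested.

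The members reached 1 TPM at different time points. An onset is defined as the first time point at which every library reached at least 1 TPM. By this measure HOXC4, HOXC6 and HOXC8 appeared at P1, HOXC5, HOXC9 and HOXC10 at P2, and HOXC11 at P5. Within single differentiations HOXC4 reached 1 TPM at P1, P1 and 36 h in r1, r2 and r3, HOXC5 at P2, P1 and 36 h, HOXC9 at P2, P1 and P1, and HOXC11 at P5, P3 and P4. HOXC10 reached it at P2 in all 3 differentiations, as HOXC6 and HOXC8 did at P1. Of the 2 genes beyond the group at the 5′ end, HOXC13 had its onset at P5, as HOXC11 did, and HOXC12 at P6.

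**Figure D1:**
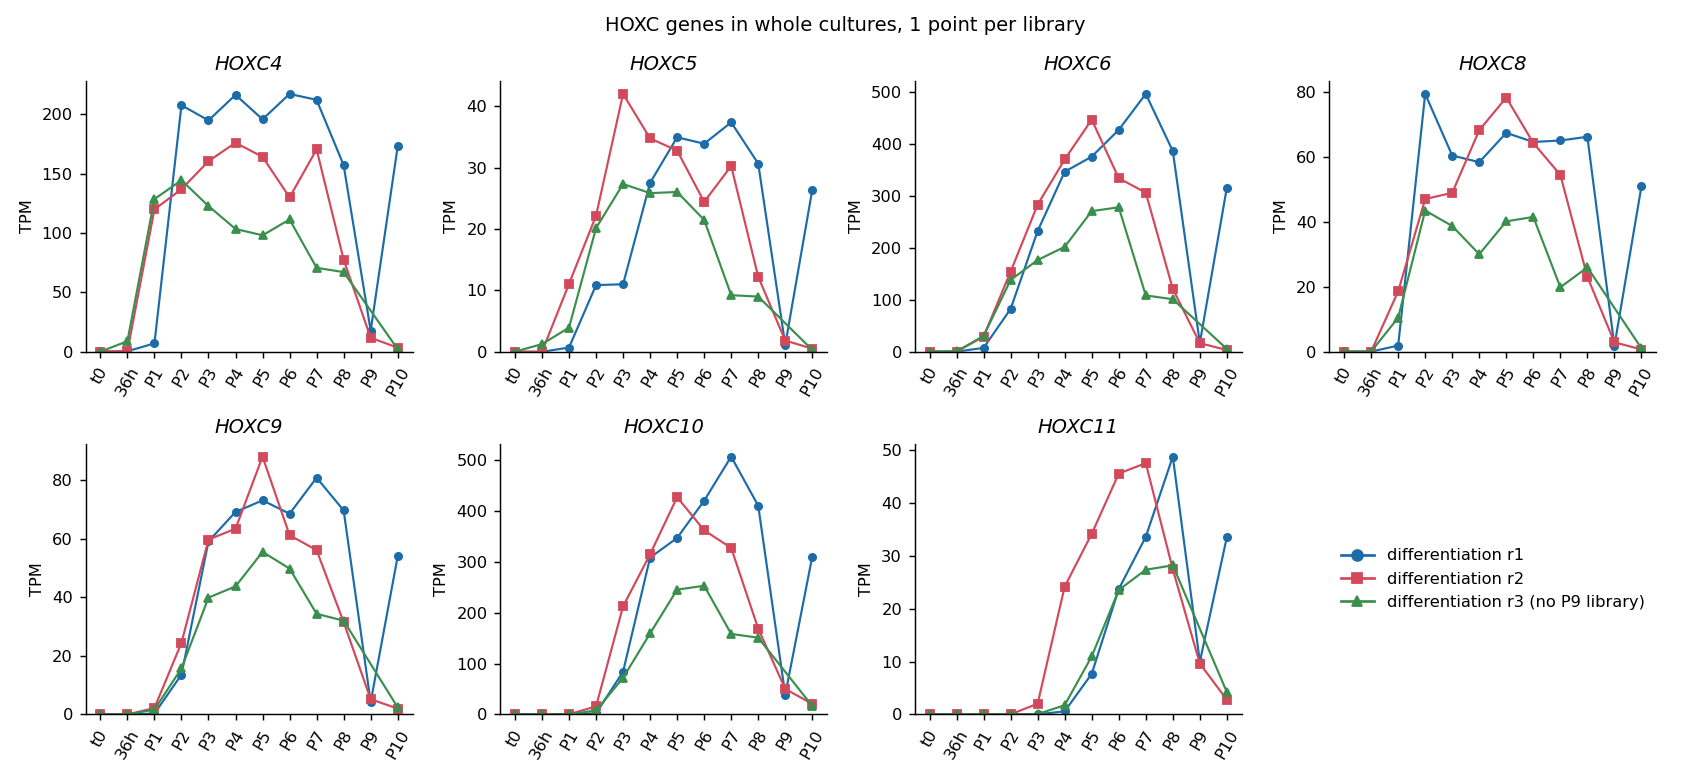
TPM of each HOXC gene (vertical axis) against the sampled time points from t0 to P10 (horizontal axis), with 1 line per differentiation. HOXC4 was already at 119.9 and 129 TPM in r2 and r3 at P1, HOXC10 was still at 2.1 to 15.9 TPM at P2, and P9 has no r3 library.

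From t0 to 36 h no member passed the test. Calls were made with the quasi-likelihood test of edgeR, blocked by differentiation, at a Benjamini-Hochberg adjusted p under 0.01 over the 21750 genes tested, provided that the change was 2-fold or more and that the compared libraries averaged 100 normalized counts or more. At this step 2.71% of all genes were called, 0 of the 7 members were called by edgeR, DESeq2 or limma, and 2 members had an unadjusted p under 0.05, as had 5677 of all genes. HOXC4 had a log2 fold change of 4.69 (SE 1.55, adjusted p in edgeR = 0.0488), which rests on r3, and it was the 1 member whose 3 libraries at 36 h were all above those at t0, as for 17.4% of all genes. HOXC9 and HOXC11 had at most 3 counts in every library of both groups, and no fold is given for them.

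From 36 h to P1 HOXC6 and HOXC8 rose. HOXC6, a gene of the brachial region, was at 0.33, 0.32 and 0.65 TPM at 36 h and at 7.49, 29.3 and 30.5 TPM at P1. HOXC8, a gene of thoracic levels, was at 0.06, 0.07 and 0.07 TPM at 36 h and at 1.91, 18.6 and 10.5 TPM at P1. For both genes, and for HOXC9, every P1 library was above every 36 h library, as for 7.49% of all genes, and r1 was the lowest at P1. The log2 fold change was 5.65 for HOXC6 (SE 1.13, adjusted p in edgeR = 0.00361) and 7.44 for HOXC8 (SE 1.25, adjusted p in edgeR = 0.00102), which had 2, 3 and 4 counts in the 36 h libraries.

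These were the 2 members of 7 called at this step, against 1.19% of all genes. HOXC4 was at 7.08, 119.9 and 129 TPM in r1, r2 and r3 at P1, the most abundant member in r2 and r3, and was not called (log2 fold change 4.56, SE 1.23, adjusted p in edgeR = 0.0226). HOXC9 was at 0.31, 2.21 and 1.68 TPM at P1 against 0, 0 and 0.02 at 36 h, at least 13.8-fold higher with each 36 h library set to the floor of 3 counts, and its mean of 22.3 normalized counts was under the minimum. HOXC10 did not differ detectably, at 0.65, 0.4 and 0.16 TPM. The median log2 fold change of the members was 4.56, or 3.78 with HOXC9 at its bound, beside -0.01 over all genes. The number of members called was 0 without r2 or without r3 and 3 without r1 or without the P1 r1 library alone, where HOXC4 joined with adjusted p in edgeR = 0.00376 in the latter case. The genes called in all were 2 without r2, 12 without r3 and 809 without P1 r1, in place of 259. DESeq2 also called 3, with HOXC4 (adjusted p = 0.000663), and 2.64% of all genes, while limma called 1 and edgeR with only the compared groups in the fit called 0. At the same step 3 of the 5 epithelial progenitor markers (CDH1, EPCAM and ESRP1) were called lower. None of the 8 NC markers (SOX10, FOXD3, SNAI2, TFAP2B, PAX3, SOX9, ETS1 and TWIST1) was called. Of the 6 paraxial mesoderm markers 5 had log2 fold changes above 0 and none was called. They summed to 7.60, 396 and 487 TPM in P1 r1, r2 and r3, against 8.83, 132 and 632 TPM at 36 h. The part of all these markers in the result was not tested.

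From P1 to P3 HOXC9 and HOXC10 rose. HOXC10, a gene of lumbar levels, was at 0.65, 0.4 and 0.16 TPM at P1, at 2.1, 15.9 and 7.91 TPM at P2 and at 84.1, 213 and 72.0 TPM at P3. HOXC9 was at 0.31, 2.21 and 1.68 TPM at P1 and at 59.1, 59.7 and 39.9 TPM at P3. The P1 and P3 groups did not overlap for 4 of 7 members, HOXC6, HOXC8, HOXC9 and HOXC10, and 9.62% of all genes were higher at P3 without overlap. The log2 fold change was 8.51 for HOXC10 (SE 0.94, adjusted p in edgeR = 1.27e-05) and 4.73 for HOXC9 (SE 0.78, adjusted p in edgeR = 0.00117).

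These 2 of 7 members were called at this step, against 1.09% of all genes. HOXC6 went from 7.49, 29.3 and 30.5 TPM to 233, 284 and 177 TPM, 3.02 on the log2 scale (SE 0.93, adjusted p in edgeR = 0.0544), and was not called. HOXC4 had a log2 fold change of 0.56 (SE 1.05), which turned to -0.08 without the P1 r1 library, in which HOXC4 was at 7.08 TPM. HOXC11 was at 0, 0 and 0.06 TPM at P1 and at 0.02, 2.04 and 0.07 TPM at P3. Without P1 r1 the same 2 members were called. Without r2 or without r3 none was called, and without r1 4 were (HOXC6, HOXC8, HOXC9 and HOXC10). The genes called in all were 2 without r2, 2 without r3, 820 without r1 and 262 without P1 r1, in place of 238. DESeq2 called 3, with HOXC6 (adjusted p = 0.00954), and 2.44% of all genes, while edgeR with only the compared groups in the fit called 0. All 8 NC markers had log2 fold changes above 0 at this step and 3 (PAX3, ETS1 and TWIST1) were called higher, their sum going from 76.5, 79.8 and 51.0 TPM to 100.8, 313 and 361 TPM. The part of these markers in the result was not tested.

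**Figure D2:**
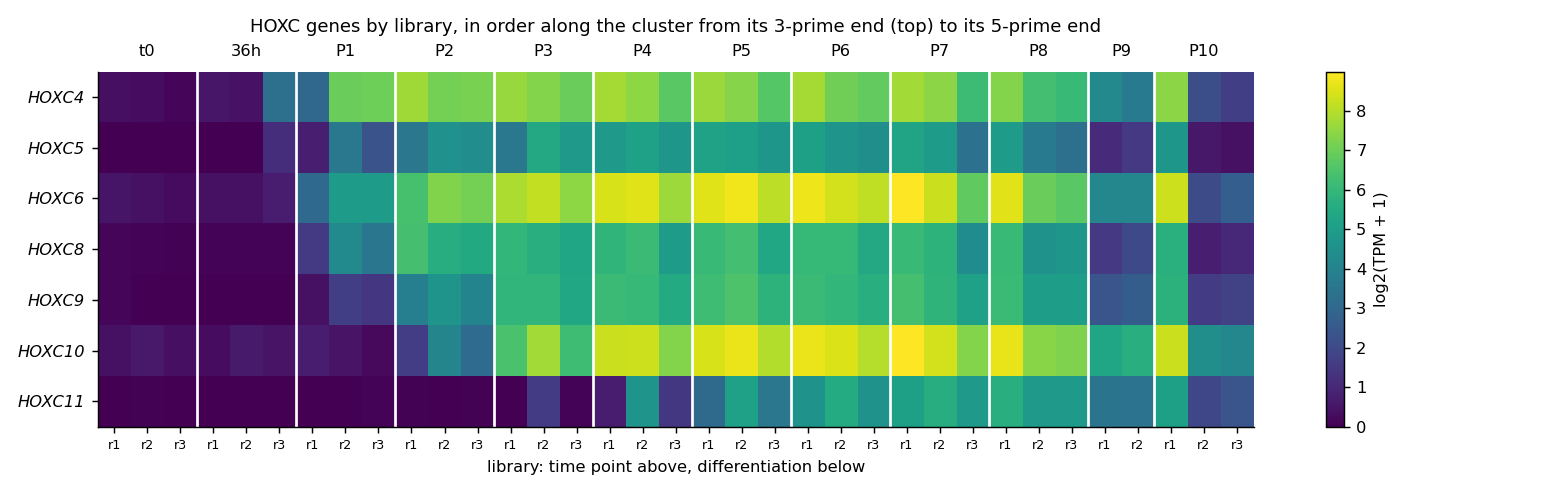
Level of each HOXC gene (rows, from the 3′ to the 5′ end of the cluster) in every whole-culture library (columns, by time point and differentiation), as colour on a log2(TPM + 1) scale. HOXC4 is bright from P1, HOXC10 from P3 and HOXC11 from P4 or later, and P10 r1 stays bright where P10 r2 and r3 are dark.

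The summed level of the 7 genes was 478 to 809 TPM at P3 and 747 to 1272 TPM at P5. HOXC11, a gene of sacral levels, was at 0.02, 2.04 and 0.07 TPM at P3, at 0.6, 24.2 and 1.76 TPM at P4 and at 7.67, 34.1 and 10.96 TPM at P5. Every P5 library was above every P3 library in 2 of 7 members, HOXC10 and HOXC11, as in 7.66% of all genes, and for HOXC11 r2 was ahead of the others. The difference was 5.00 on the log2 scale (SE 1.11, adjusted p in edgeR = 0.105). At this step 0 of 7 members were called by edgeR and by limma against 0.0138% of all genes, 2 had an unadjusted p under 0.05, as had 1545 of all genes, and DESeq2 called HOXC11 alone (adjusted p = 0.00217), where it called 0.271% of all genes. HOXC10 went to 347, 427 and 245 TPM (log2 fold change 1.45, SE 0.64, adjusted p in edgeR = 0.631), and the other 5 members had log2 fold changes between -0.12 and 0.60. All 6 paraxial mesoderm markers had log2 fold changes below 0, their sum going from 366, 15.95 and 30.4 TPM to 4.46, 2.96 and 2.79 TPM. All 5 epithelial progenitor markers and 7 of the 8 NC markers were above 0. None of these markers was called, and their part in the result was not tested.

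The highest group mean over the whole cultures was at P4 for HOXC4 (165 ± 57.2 TPM, SD, n = 3), at P5 for HOXC5 (31.3 ± 4.65), HOXC6 (365 ± 88.7), HOXC8 (62.0 ± 19.6) and HOXC9 (72.2 ± 16.3), at P6 for HOXC10 (345 ± 84.9) and at P7 for HOXC11 (36.1 ± 10.3). Per length, HOXC6 and HOXC10 were thus the most abundant members at their peaks. The peak of HOXC5 is that of the processed-transcript record, while the protein-coding record had its highest group mean at P2 (82.1 ± 65.5 TPM). The single differentiations peaked elsewhere in part, HOXC4 at P6, P4 and P2 and HOXC8 at P2, P5 and P2 in r1, r2 and r3. In the order of the 16 group means, neighbours overlapped in range in 13 of 15 pairs for HOXC4, 15 of 15 for HOXC5 and HOXC11, 14 of 15 for HOXC6 and HOXC8, and 12 of 15 for HOXC9 and HOXC10. For HOXC6 and HOXC8 the separated pair was P9 above 36 h, and for HOXC10 the P5 EPI fraction was above the next group, P6.

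The balance within the cluster shifted from the 3′ to the 5′ end in these cultures. HOXC4 gave 39.1, 66.1 and 73.3% of the summed TPM of the members in r1, r2 and r3 at P1, 25.3 ± 5.26% (SD, n = 3) at P3 and 14.6 ± 2.74% at P5. HOXC10 gave 3.59, 0.22 and 0.0912% at P1, 18.1 ± 7.10% at P3 and 32.6 ± 1.059% at P5. The most abundant member was HOXC4 in P1 r2 and r3, HOXC6 in all 3 libraries from P3 to P5, and HOXC10 in all 3 at P7 and P8 and in both at P9. The mean paralogue number, the average of the numbers 4 to 11 weighted by TPM, was 5.04 ± 0.48 (SD, n = 3) at P1, 6.59 ± 0.32 at P3, 7.39 ± 0.15 at P5 and 7.71 ± 0.10 at P8. It was 8.04 and 8.49 in the P9 libraries and 7.35, 8.90 and 8.86 at P10. The P3 libraries all lay above those of P1, the P5 libraries all above those of P3 and the P8 libraries all above those of P5, while P10 r1 lay within the range of P5.

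**Figure D3:**
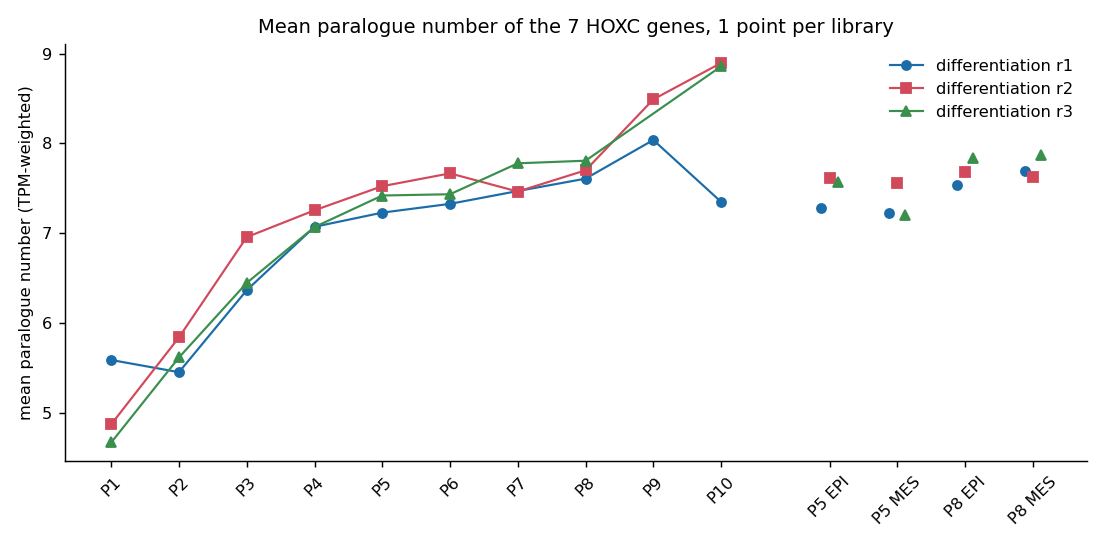
Mean paralogue number of the 7 HOXC genes weighted by TPM (vertical axis), with 1 point per library, for P1 to P10 joined within each differentiation and for the 4 fraction groups at the right. The number went from 4.67 to 5.59 at P1 to between 7.61 and 7.81 at P8, P10 r1 was at 7.35, and EPI and MES overlapped at both passages.

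Between P5 and P8 no member was called. HOXC11 was at 48.7, 27.4 and 28.2 TPM at P8, a log2 fold change of 1.34 (SE 0.93, adjusted p in edgeR = 0.577). The other 6 members had log2 fold changes between -1.09 (HOXC6) and -0.54 (HOXC10). Within differentiations the log2 difference was 2.58, -0.231 and 1.43 for HOXC11 and 0.198, -1.26 and -0.583 for HOXC10 in r1, r2 and r3. None of the 7 was called by edgeR, DESeq2 or limma, none had an unadjusted p under 0.05, where 2892 of all genes had one, and 0.0092% of all genes were called. The differentiations differed at P8, where HOXC6 was at 387 TPM in r1, 121 in r2 and 101 in r3. The epithelial progenitor markers stood in the same order there, at 339, 145 and 106 TPM, the 8 NC markers in the reverse order, at 258, 633 and 988 TPM, and their part in the result was not tested.

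At P9 all 7 members were lower than at P8. HOXC6 stood at 16.9 and 16.7 TPM in r1 and r2, HOXC10 at 38.8 and 50.1 TPM, HOXC4 at 17.8 and 11.8 TPM and HOXC8 at 1.80 and 2.93 TPM. HOXC11 stood at 9.96 and 9.62 TPM. For each of the 7 genes the 2 P9 libraries lay below all 3 P8 libraries, as for 17.2% of all genes. Log2 fold changes against P8 ran from -4.12 (HOXC8, SE 1.10, adjusted p in edgeR = 0.0214) to -2.21 (HOXC11, SE 1.12, adjusted p in edgeR = 0.213), and none of the 7 passed the threshold at this step, where 1.22% of all genes were called and P9 had 2 libraries. The epithelial progenitor markers went from 339, 145 and 106 TPM at P8 to 10.1 in both P9 libraries. The sum of the NC markers went from 258, 633 and 988 to 1153 and 1143 TPM. Within this sum SOX10 was at 0.78, 1.23 and 15.2 TPM at P8 and at 0.84 and 0.92 TPM at P9. The part of these markers in the result was not tested.

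At P10 the differentiations split. In r2 and r3 HOXC4 stood at 3.46 and 2.20 TPM, HOXC5 at 0.51 and 0.31, HOXC6 at 3.28 and 5.49, HOXC8 at 0.70 and 1.07, HOXC9 at 1.99 and 2.45, HOXC10 at 20.9 and 16.8 and HOXC11 at 2.79 and 4.23. In r1 the same genes stood at 173, 26.4, 317, 50.9, 54.0, 311 and 33.5 TPM, between 61.3% (HOXC10) and 79.7% (HOXC4) of their own peak over the whole cultures of that differentiation. In r2 and r3 the 5′ members kept more of their peak than the 3′ members, with 5.88% and 15.0% for HOXC11 and 4.89% and 6.62% for HOXC10 against 0.733% and 1.97% for HOXC6 and 1.97% and 1.52% for HOXC4. In r1 all 7 genes were lower at P9 than at P8 and higher again at P10. Whether both r1 libraries carry the right passage label was not tested.

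With all 3 P10 libraries, 0 of 7 members were called against P8 by edgeR, DESeq2 or limma, 2 had an unadjusted p under 0.05, as had 3571 of all genes, and 0.0874% of all genes were called. The median log2 fold change was -1.33 over the members and -0.01 over all genes. Without P10 r1, an alternative chosen after the data were seen, 6 of 7 members were called lower, against 1.99% of all genes. HOXC6 then fell by 5.14 on the log2 scale (SE 0.71, adjusted p in edgeR = 3.17e-05), HOXC8 fell by 5.09 (SE 0.70, adjusted p in edgeR = 2.98e-05) and HOXC10 fell by 3.45 (SE 0.56, adjusted p in edgeR = 0.000181), and HOXC11 with -3.35 (SE 1.05, adjusted p in edgeR = 0.034) was the exception. Leaving out r1 throughout gave the same count of 6. SOX2 moved with the split, at 214 TPM in P10 r1 and at 0.5 and 0.71 TPM in r2 and r3. The NC markers summed to 378, 957 and 1022 TPM in r1, r2 and r3, and the neuron markers to 281, 449 and 423.5 TPM. In hESCs at t0 the neuron list already summed to between 139.9 and 175.8 TPM. Against P8, with all 3 P10 libraries, 6 of the 8 NC markers had log2 fold changes below 0 and 2 above (median -0.43). All 4 neuron markers were above 0 (median 1.55), and no gene of either list was called. The part of the mix of cells in the result was not tested.

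At P5 every member was lower in MES than in EPI in all 3 differentiations. HOXC4 was at 238, 186 and 148 TPM in EPI and at 98.2, 92.1 and 43.8 TPM in MES. HOXC10 was at 438, 530 and 440 TPM in EPI and at 182, 255 and 87.2 TPM in MES. The MES and EPI ranges did not overlap for 5 of the 7 members, where 15.2% of all genes were lower without overlap. The exceptions were HOXC5, with 31.1 TPM in MES r1 above 27.1 in EPI r3, and HOXC11, with 19.2 TPM in MES r2 above 9.15 in EPI r1.

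The log2 fold change of MES against EPI at P5 was -1.29 for HOXC4 (SE 0.26, adjusted p in edgeR = 0.0266), -1.51 for HOXC10 (SE 0.41, adjusted p in edgeR = 0.06) and -1.18 for HOXC6 (SE 0.45, adjusted p in edgeR = 0.147). The median over the members was -1.18 and over all genes 0.003. In this fit, over 18885 genes, 0 of 7 members were called by edgeR and by limma, 3 had an unadjusted p under 0.05, as had 4894 of all genes, and 0% of all genes were called. DESeq2 called HOXC4 (adjusted p = 3.88e-05) and HOXC10 (adjusted p = 0.00139), and 3.57% of all genes. The epithelial progenitor markers summed to between 208 and 276 TPM in P5 EPI and between 38.3 and 100.2 TPM in P5 MES, with CDH1 and ESRP1 under 1 TPM in every library of both. The NC markers summed to between 185 and 324 TPM in EPI and between 515 and 629 TPM in MES, with all 8 at a mean of at least 1 TPM in both and PAX3 alone below 0 as a log2 fold change (-1.03, not called). The other lists were low in the fractions of both passages, with at most 9.52 TPM for paraxial mesoderm, 8.48 for lateral plate and limb, 18.7 for intermediate mesoderm, 12.2 for endothelium and 0.05 for endoderm. The neuron markers summed to between 76.4 and 410.7 TPM in the fractions, but also to between 139.9 and 175.8 TPM in hESCs at t0. In P5 EPI 2 of these 4 genes had a mean of at least 1 TPM, so the sum alone does not mark neurons. At P5 the neuron markers were at 290, 205 and 192 TPM in EPI and at 162.5, 126.5 and 76.4 TPM in MES of r1, r2 and r3. At P8 they were lower in MES in r1 and higher in r2 and r3. The part of these markers in the result was not tested.

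At P8 the members were again lower in MES in all 3 differentiations, with every pair of ranges overlapping, where 4.45% of all genes were lower in MES without overlap. HOXC6 was at 378, 127 and 135 TPM in EPI and at 302, 118 and 47.0 TPM in MES. HOXC11 was at 47.6, 26.5 and 28.7 TPM in EPI and at 39.2, 19.6 and 13.4 TPM in MES. In both genes r1 was high in each fraction, so that the spread between differentiations was larger than that between fractions. Log2 fold changes lay between -0.79 (HOXC8) and -0.57 (HOXC9). None of the 7 members was called by edgeR, DESeq2 or limma, 2 had an unadjusted p under 0.05, as had 2261 of 18885 genes, and 0% of all genes were called. Epithelial progenitor markers were at 318, 157 and 111 TPM in EPI and at 203.5, 98.4 and 33.8 TPM in MES of r1, r2 and r3, lower in MES within each differentiation. Most of this sum was SOX2 (301.2 TPM in EPI r1), and CDH1 and ESRP1 had log2 fold changes above 0 (0.10 and 1.08, not called). The NC markers were at 220.1, 644 and 962 TPM in EPI and at 427, 666 and 1260.0 TPM in MES, higher in MES within each, while 3 of the 8 (FOXD3, PAX3 and SOX9) had log2 fold changes below 0, down to -0.33. Their part in the result was not tested.

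**Figure D4:**
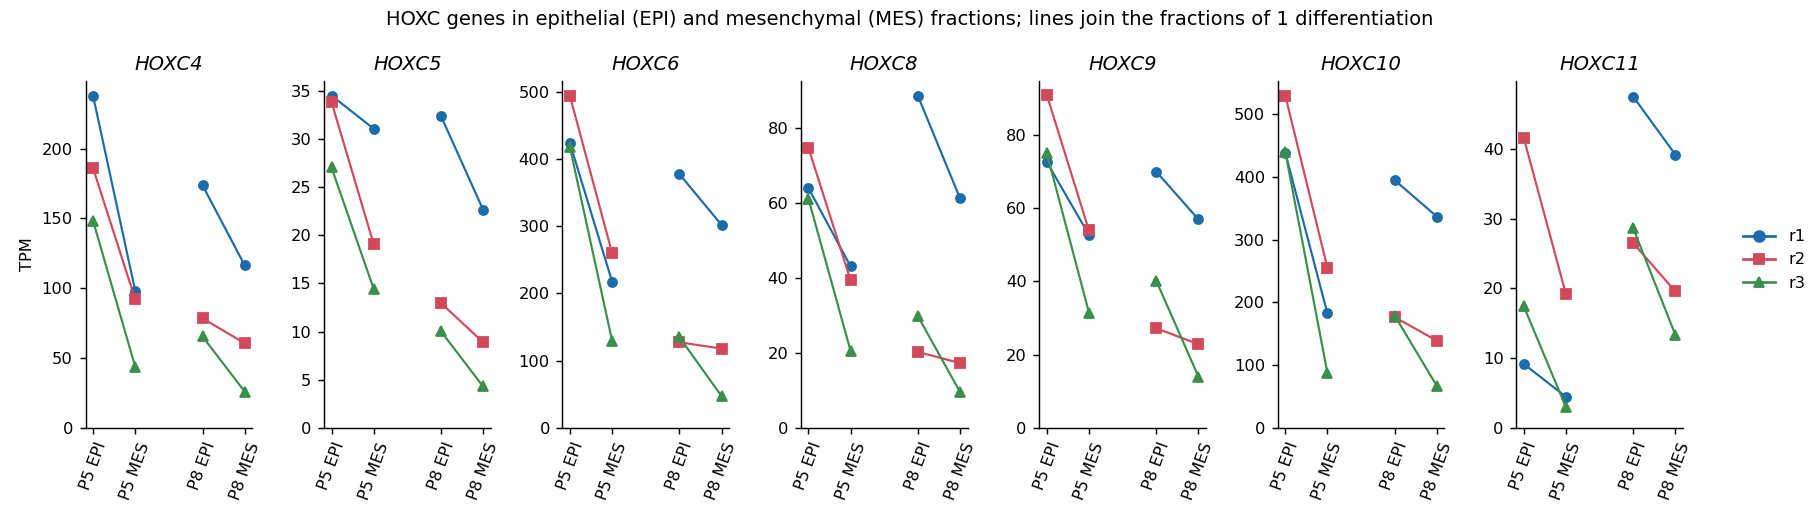
TPM of each HOXC gene (vertical axes, each panel with its own scale from 0) in the EPI and MES fractions at P5 and P8, with lines joining the 2 fractions of a differentiation. All 42 lines go down from EPI to MES, and at P8 r1 lies above r2 and r3 in every panel.

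From P5 to P8 within EPI, HOXC6 had a log2 fold change of -1.3 (SE 0.46, adjusted p in edgeR = 0.0976), HOXC4 of -0.89 (SE 0.26, adjusted p in edgeR = 0.0609) and HOXC11 of 0.87 (SE 0.67, adjusted p in edgeR = 0.402). No member was called by edgeR, DESeq2 or limma, 5 had an unadjusted p under 0.05, as had 5918 of 18885 genes, and 0.259% of all genes were called. Within MES the values were -1.05 for HOXC5 (SE 0.32, adjusted p in edgeR = 0.0655) and 1.75 for HOXC11 (SE 0.70, adjusted p in edgeR = 0.129). Again no member was called by these 3 tools, 2 had an unadjusted p under 0.05, as had 5882 of 18885 genes, and 0.699% of all genes were called. HOXC11 was the only member with a positive value in each fraction. The difference between the fractions in this step was tested as an interaction, with the largest estimate for HOXC10 (0.91 on the log2 scale, SE 0.57, adjusted p in edgeR = 0.852). No member was called by any of the 3 tools or had an unadjusted p under 0.05, where 1152 of all genes had one, and 0% of all genes were called.

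The mean paralogue number was 7.49 ± 0.18 (SD, n = 3) in P5 EPI, 7.33 ± 0.20 in P5 MES, 7.69 ± 0.15 in P8 EPI and 7.73 ± 0.13 in P8 MES. From EPI to MES it went from 7.28 to 7.22 in r1, from 7.615 to 7.561 in r2 and from 7.58 to 7.20 in r3 at P5, lower in MES in 3 of 3. At P8 it went from 7.54 to 7.69, from 7.685 to 7.62 and from 7.84 to 7.87. The difference was not tested. Whole cultures lay between their own 2 fractions in 17 of 21 pairs of member and differentiation at P5 and in 14 of 21 at P8, and above both in the others.

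HOXC5 has 2 records under its symbol. The record used above (ENSG00000273046) is annotated as a processed transcript and had the higher count in 33 libraries. The other (ENSG00000172789, chr12:54032853-54035358) is annotated as protein coding, was higher in 11 and shares 1081 exonic bases with the former, so that the division of reads between them is an estimate. Over the whole cultures the coding record had its maximum at P2 in r2 and r3 and at P4 in r1. It was at 6.64, 124 and 116 TPM at P2 and 6.48, 46.3 and 86.0 TPM at P3, and it was down to 3.90, 1.22 and 1.98 TPM at P8. The processed transcript was at 10.9, 22.2 and 20.2 TPM at P2 and at 30.7, 12.2 and 8.99 TPM at P8. In the whole cultures of r1 the coding record did not pass 15.9 TPM.

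The coding record was not called in any of the comparisons. It was the reverse of the used record at P5, with 10.9, 7.73 and 11.4 TPM in EPI and 24.2, 9.40 and 17.2 TPM in MES (log2 fold change 0.64, SE 0.42, adjusted p in edgeR = 0.385). From P5 to P8 in MES it stood at -3.07 as a log2 fold change (SE 0.47, adjusted p in edgeR = 0.0104). The sum of both records was 17.5, 145.9 and 136.1 TPM at P2 (mean 99.8) and 48.3, 42.8 and 39.7 TPM at P5 (mean 43.6) in r1, r2 and r3, higher at P5 in r1 and lower in r2 and r3.

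**Figure D5:**
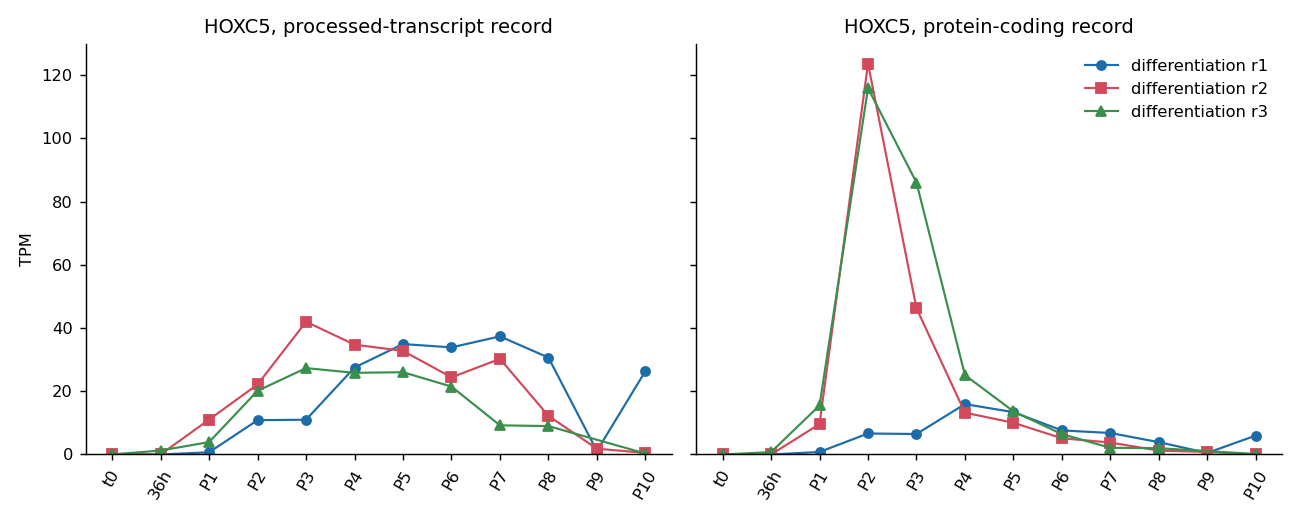
TPM of the 2 HOXC5 records (vertical axis, same scale in both panels) from t0 to P10, with 1 line per differentiation. The protein-coding record reached 124 and 116 TPM at P2 in r2 and r3 and was at most 15.9 TPM in the whole cultures of r1, while the processed transcript stayed at or under 42.0 TPM.

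HOXC12 and HOXC13, the terminal genes, had log2 fold changes of 7.53 and 5.68 from P3 to P5 (SE 1.83 and 1.18, adjusted p in edgeR = 0.157 and 0.0859) and of 3.77 and 3.87 from P5 to P8 (SE 1.38 and 0.96, adjusted p in edgeR = 0.215 and 0.0746), and neither was called. At P9, where the 7 members were low, HOXC12 was still at 76.3 and 89.1 TPM, against 107, 165 and 164 TPM at P8. HOTAIR, a long noncoding RNA of the minus strand that is known to bind Polycomb proteins, starts within the span of HOXC11 and has no exonic base in common with it, and went from 209 ± 36.6 TPM (SD, n = 3) at P8 to a mean of 44.1 TPM at P9. Of the 5 noncoding genes of the cluster (HOTAIR, HOXC-AS1, HOXC-AS2, HOXC-AS3 and HOXC13-AS), HOXC-AS2 was called higher at P3 than at P1 (log2 fold change 7.80, SE 0.88, adjusted p in edgeR = 1.5e-05) and no other was called in any comparison. HOXC-AS2 shares 163 exonic bases with HOXC9 and 73 with HOXC6 on the opposite strand, and HOXC-AS3 shares 63 with HOXC10. Whether the counting used strand is not given in the sources used here. Counts of HOXC-AS2 and HOXC-AS3 were not whole (within 0.005) in 0 of the 47 libraries, and those of HOXC9 in 2. No sharing of reads by estimate was thus seen in the 2 antisense records.

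Beside the HOXC members, the paralogues of the other clusters were counted in the same fits. From t0 to 36 h, 2 of 6 HOXB genes were called higher (HOXB4 and HOXB8), 0 of 7 HOXA genes, 0 of 5 HOXD genes and 0 of 7 HOXC genes. The median log2 fold change was 5.22 for HOXB, 1.03 for HOXA and 1.62 for HOXD, with few counts in genes of several lists. It was 0.63 over the 5 HOXC members with a fold. From 36 h to P1, 2 of 6 HOXB, 1 of 7 HOXA and 2 of 5 HOXD genes were called higher beside the 2 of 7 HOXC genes. From P1 to P3, 5 of 7 HOXA genes (HOXA6, HOXA7, HOXA9, HOXA10 and HOXA11), 1 of 5 HOXD genes (HOXD9) and 0 of 6 HOXB genes were called higher beside HOXC9 and HOXC10. Without r2 only 2 genes in all were called at either of these steps, so the list counts cannot all hold there. Without r3 the genes called in all were 12 from 36 h to P1 and 2 from P1 to P3. From P3 to P5 HOXD10 was the only called gene of the 4 lists. In MES against EPI at P5 all 25 genes of the 4 lists had a negative value, with medians of -1.18 for HOXC, -0.68 for HOXA, -0.75 for HOXB and -1.23 for HOXD, and none was called. No difference between clusters was tested.

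Among 9 genes known to act on HOX genes (CDX1, CDX2, CDX4, GDF11, TBXT, WNT3A, FGF8, CYP26A1 and RARG), 4 were called higher from t0 to 36 h. They were CDX1 (log2 fold change 11.3, SE 1.29, adjusted p in edgeR = 2.44e-06), CDX2 (9.57, SE 1.42, adjusted p in edgeR = 8.08e-05), TBXT and FGF8. CDX2 was at 21.8 to 181 TPM at 36 h, at 56.5 to 356 TPM at P8 and at 7.21 and 7.29 TPM at P9. GDF11, a secreted ligand of the TGF-beta family, was called higher from P1 to P3 (1.28, SE 0.27, adjusted p in edgeR = 0.00654), the step at which HOXC9 and HOXC10 were called, but not without P1 r1 (1.105, SE 0.31, adjusted p in edgeR = 0.029), and was at 12.2 to 14.6 TPM at t0 and 87.8 to 103 TPM at P8. Over the 35 whole cultures, on the log2(TPM + 1) scale, Pearson's r with GDF11 was 0.928 for HOXC10, 0.863 for HOXC11 and 0.698 for HOXC4, while with CDX2 it was 0.536, 0.34 and 0.793. These are descriptions, since the libraries share differentiations and a time axis.

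Of the genes for MEIS cofactors, which bind DNA beside HOX proteins, MEIS2 was called higher from t0 to 36 h (log2 fold change 4.77, SE 0.92, adjusted p in edgeR = 0.0013) and MEIS1 from 36 h to P1 (5.32, SE 1.01, adjusted p in edgeR = 0.00261). MEIS1 was at 1.11, 0.36 and 2.31 TPM at 36 h and at 0.93, 48.1 and 57.4 TPM at P1, not higher in r1, and without P1 r1 it was called as well (adjusted p in edgeR = 3.73e-05). MEIS1 was at 25.7 to 36.0 TPM at P3 and 0.67 to 3.29 TPM at P8, and MEIS1 fell by 2.83 on the log2 scale in MES from P5 to P8 (SE 0.33, adjusted p in edgeR = 0.00597).

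Members next to each other in the cluster had like profiles over the 35 whole cultures. Pearson's r was 0.976 for HOXC6 and HOXC8, 0.928 for HOXC9 and HOXC10 and 0.808 for HOXC10 and HOXC11, while for HOXC4 and HOXC11, at the ends of the group, it was 0.435. The members themselves were left out of the following ranking, made among 13371 genes that averaged 100 or more normalized counts. For HOXC5, HOXC6, HOXC8 and HOXC9 some other members were closer than the genes named. Pearson's r was 0.968 for HOXC5 and HOXC6 and 0.973 for HOXC6 and HOXC9. Members aside, the 3 genes most like HOXC4 were HOXB-AS3 (r = 0.981), HOXD4 (0.98) and HAGLR (0.98). HOXA7 was among the 3 for HOXC6 (0.968), HOXC8 (0.968) and HOXC9 (0.957). HOXB7 (0.957) and HOXD8 (0.954) were the others for HOXC6, HOXB-AS3 (0.962) and ZBTB16 (0.961) for HOXC8, and AC012531.1 (0.959) and HOXC-AS2 (0.957) for HOXC9. For HOXC5 they were TCTEX1D2 (0.96), HOXD1 (0.948) and ZBTB16 (0.948), for HOXC10 LINC02086 (0.97), HOXA6 (0.967) and AC004540.2 (0.964), and for HOXC11 HOTAIR (0.991), LBX2-AS1 (0.966) and HOXD11 (0.966). Over the 12 time point means, HOXD4 for HOXC4, HOXD8 for HOXC6, HOXA6 for HOXC10, and HOTAIR and LBX2-AS1 for HOXC11 were still among the 3, and no gene named for HOXC5, HOXC8 or HOXC9 was. Depth and the mix of cells are shared by all genes of a library.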

How the data were processed

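Poly(A) RNA of 47 libraries of the WA09 line was sequenced. Per the submitters' processing notes, reads were trimmed with cutadapt 1.16, aligned to GRCh38 with STAR 2.5.2b and quantified with RSEM 1.3.0. The deposited expected counts are RSEM's estimated counts per gene and are not normalized (9.33% of values are not whole), and TPM values were computed by the authors with transcript length. Gene symbols came from GENCODE 29, which matched 57447 identifiers. The strand setting is not given in the sources used here.

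Expected counts were rounded and tested with edgeR 4.0.16 (R 4.3.3) after TMM scaling and filterByExpr, in 1 fit over the 35 whole cultures (21750 genes, 21 residual degrees of freedom) and 1 over the 12 fractions (18885 genes, 6 residual degrees of freedom), with the differentiation as a block. The thresholds were FDR 1%, fold 2 and a mean of 100 normalized counts. DESeq2 1.42.0, limma 3.58.1 on log2(TPM + 1), another scaling, filters, sets of libraries and leaving out each differentiation were alternatives. The edgeR fits were also run on simulated counts with known changes, for P8 against P5 and for P8 MES against P8 EPI. The simulated counts held no differences between differentiations, so they cannot show how many changes the tests on the real libraries missed. The members and lists were chosen with earlier results of these data known. Named were the members, the 3 genes outside the members most correlated with each, and listed neighbours, CDX genes, GDF11, MEIS1 and MEIS2. Other genes in listed groups were named where few were called. A further listed gene is not reported here.

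The design text ties the replicate numbers to the experiments. Deviations of same-numbered libraries from their group means correlated at 0.589 to 0.802 between the fractions of a passage and, as means per step, at -0.00723 to 0.307 along the time course. In none of the 1081 pairs of libraries did counts agree within sampling noise (chi-square per degree of freedom 10.6 or more). The differentiations are of 1 cell line, so p-values measure the spread between repeats of the protocol. Depth, 13029491 to 64082859 expected counts per library, limits values near 3 counts, taken as the floor. This covers counting error only.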

Additional observations from a re-analysis of the deposited data

Results flagged for a closer look

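A signal lies in a second HOXC5 record, which is outside the 7 members. The protein-coding record of HOXC5 had a mean of 82.1 TPM at P2 (6.64, 124 and 116 TPM in r1, r2 and r3), while no t0 library was above 0.02 TPM. It was higher than the processed-transcript record in r2 and r3 at P2 and lower in r1. The groups hold 2 or 3 libraries, too few for a test of outlying libraries.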

How the results depend on the processing

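Of 11 counts of called members, 6 held under every alternative. For P1 against 36 h the 2 calls became 0 with only the compared groups in the fit and 1 with limma, and for P3 against P1 the 2 calls became 0 with only the compared groups, where no gene at all was called. For P5 against P3 DESeq2 called 1 member, and for P5 MES against EPI it called 2 and an FDR of 5% gave 1, against 0. Leaving out each differentiation in turn gave 0 to 3 for P1 against 36 h, 0 to 4 for P3 against P1 and 0 to 6 for P10 against P8, where leaving out the P10 r1 library gave 6. Without the replicate block all 11 counts of members were as with the block, 2 and 2 for the early steps and 0 for the rest, while 129 genes in place of 238 were called from P1 to P3.

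The onset, as a passage number with 36 h as 0, moved to 0 for HOXC4 by a mean of 1 TPM or of 100 normalized counts, to 1 for HOXC5 by 0.5 TPM or either mean, to 1 for HOXC9 by a mean of 1 TPM, to 4 for HOXC11 by 0.5 TPM or either mean, and with 5 TPM to 2 for HOXC8 and 3 for HOXC10. The HOXC5 level with both records summed was 99.8 TPM at P2 and 43.6 at P5. Weighted by log2(TPM + 1), the mean paralogue number was 5.92 at P1, 6.55 at P2, 7.01 at P3, 7.60 at P8 and 7.81 at P9, and weighted by normalized counts 7.86 at P8 and 7.87 in P8 MES.

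Of 856 alternative values for single genes, 811 kept direction and side of the threshold, 13 were weaker, 24 stronger and 8 reversed, none of the last called. With limma HOXC10 was at 0.011 for 36 h against t0 and at -0.005 for P1 against 36 h. HOXC10 was at 0.014 for MES P8 against P5 without the block. The other reversals came from leaving out 1 library or differentiation, with ranges of -0.646 to 0.332 for HOXC10 in MES P8 against P5, -0.115 to 0.936 for HOXC6 in 36 h against t0, -0.077 (without P1 r1) to 1.154 for HOXC4 in P3 against P1, -0.032 to 8.742 for HOXC11 in P3 against P1 and -0.254 to 0.553 for HOXC5 in P5 against P3. The causes were not tested.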
